A study of Homo sapiens with 4 samples.

Results

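The 49 genes described here encode the machinery that licenses replication origins, starts them and copies DNA in S phase: the origin recognition complex, the MCM proteins and their loaders, the CMG helicase and its activating kinase, the clamp and clamp loader, the replicative polymerases, and the enzymes that supply nucleotides and rebuild chromatin. The list follows textbook roles and its rule uses no measured value, but it was drawn up with earlier results of these data known. All 49 were measured among 18417 genes with a single-gene probe. They were profiled in HuH7, a human hepatocellular carcinoma line kept below passage 10 in medium with 10% serum. A total of 4 one-colour arrays were compared, 2 from cells that stably carried a control shRNA (short hairpin RNA) and 2 from cells that stably carried shRNA against MKL1 and MKL2. All cells had been infected with lentivirus from the pLKO.1 vector and selected with puromycin for 7 days, so the controls share the infection and the drug. A knockdown lowers a transcript without deleting the gene, and the labels do not say whether the selected cells were pools or clones. MKL1 and MKL2 (MRTFA and MRTFB) are actin-regulated co-activators of the transcription factor SRF, and the comparison asks which transcripts differ when their levels are reduced. By title the arrays of a group are biological replicates, but a separate infection for each is not stated, so p-values measure only the spread between these arrays, which may be technical.

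The probe for MRTFA, which also lists RBM15, read 7.79 ± 0.0227 in the control and 6.86 ± 0.0664 in the knockdown pair of arrays (mean log2 value ± SD, n = 2 each; limma adjusted p = 0.0404). That call was lost when either control array was left out (limma adjusted p = 0.732 without replicate 1 and 0.638 without replicate 2) and without variance moderation (0.416). No gene was called in those 3 fits, and the log2 difference of the probe, -0.93, was -0.94 and -0.91 without the control arrays in that order. MRTFB read 7.21 ± 0.0127 and 6.98 ± 0.191, and its difference did not pass (limma adjusted p = 0.448). Its knockdown arrays read 6.84 in replicate 1 and 7.11 in replicate 2, against 7.20 and 7.22 in the controls. The 15 measured hepatocyte and HuH7 markers had control means from 8.80 to 12.22, albumin and alpha-fetoprotein among the highest. Of the leukocyte markers, PTPRC, CD3E, CD14 and ITGAM read 2.78 to 5.37 over the 4 arrays, whereas LYZ, which encodes lysozyme, read 12.02 to 12.25. Array medians lay between 5.68 and 5.73.

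Replication in human cells begins with licensing in G1, when ORC (the origin recognition complex), CDC6 and CDT1 load the ring-shaped MCM2-7 helicase onto DNA as an inactive double hexamer. At the start of S phase the kinase CDC7 with its partner DBF4, together with cyclin-dependent kinases, recruits CDC45 and the GINS complex to form the active CMG helicase. Geminin (GMNN) binds CDT1 after licensing and so prevents a second round. Many of these genes are transcribed in late G1 and S phase under E2F transcription factors, and proliferating hepatoma cells express them at high levels while quiescent hepatocytes express little.

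No replication gene passed the test over all genes, but most lay somewhat lower in the knockdown cells. Of the 49 genes, 37 had a lower mean in knockdown than in control cells and 12 a higher mean, against 48.0% of all genes lower. In limma 0 of 49 reached an adjusted p under 0.05, where 0.174% of all genes did. At an unadjusted p under 0.05, 13 members were lower and none higher, that is 26.5% of the list, against a background of 8.04% of all genes lower and 6.25% higher. For 28 members (57.1%) both knockdown arrays read below both control arrays, where 23.0% of all genes did, and for no member did both knockdown arrays read above both controls, where 22.5% of all genes did. Such a count takes no account of size, and the 28 include RPA2, whose mean differed by -0.050. The differences were small: the median over the list was -0.15 on the log2 scale, against 0.008 over all genes, and the members ran from -0.42 for MCM10 to 0.10 for POLA1. The list's median lay at -0.23 in knockdown replicate 1 and at -0.088 in replicate 2, each against the mean of the controls, whereas the control arrays differed from each other by a median of 0.051. In bulk RNA a smaller share of cells in S phase and less RNA per cell cannot be told apart.

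**Figure D1:**
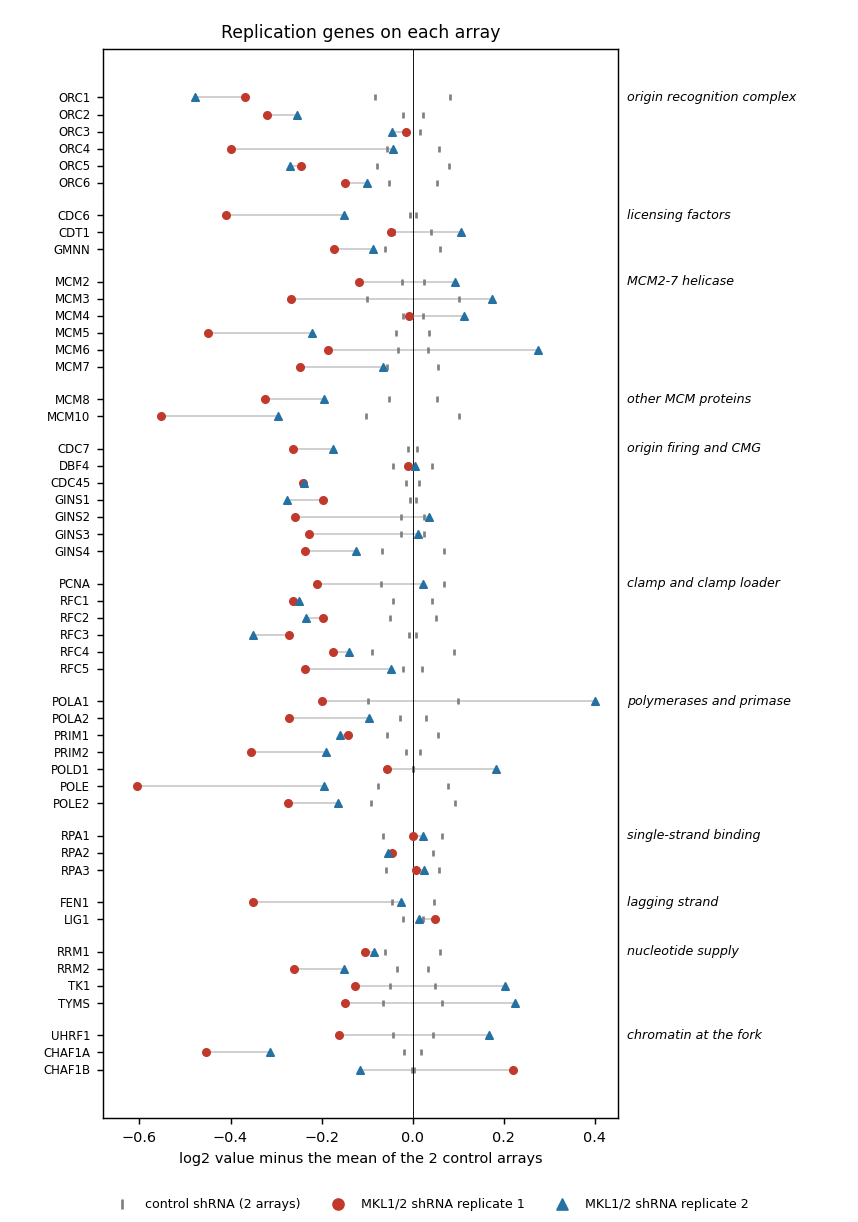
Log2 value of each of the 49 replication genes on each array minus the mean of the 2 control arrays (horizontal axis), by role; grey ticks are the control arrays, red circles knockdown replicate 1 and blue triangles knockdown replicate 2, joined by a grey line. In 28 rows both coloured points lie left of both ticks, and in 0 rows do both lie to the right.

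These counts depended on the arrays and on the scaling. Without control replicate 1 none of the 49 had an unadjusted p under 0.05, and without control replicate 2 there were 2, MCM10 and ORC1 (2.45% and 3.67% of all genes were then lower at that threshold). Without knockdown replicate 1 there were 5 lower members and 2 higher, MCM6 and POLA1, and without knockdown replicate 2 there were 18, all lower (9.33% and 13.0% of all genes lower). The spread of values was slightly narrower in knockdown replicate 1, with an upper quartile of 7.44 against 7.48 in the other 3 arrays. After quantile normalization, which gives the 4 arrays the same distribution, 8 members kept an unadjusted p under 0.05, all lower, where 7.92% of all genes were lower at that threshold. The median in knockdown replicate 1 moved to -0.18, and 26 members had both knockdown arrays below both controls and 1 above, where 23.4% and 22.6% of all genes did. After median centring 16 members had an unadjusted p under 0.05, all lower, where 10.0% of all genes were lower. Among genes outside the dimmest 40%, which held 48 of the 49 members, 13 members again had an unadjusted p under 0.05 and were lower, against a background of 11.5%. With 2 arrays in each group an exact permutation test cannot give a p below 0.333, so the model's pooled variance carries these p-values.

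**Figure D2:**
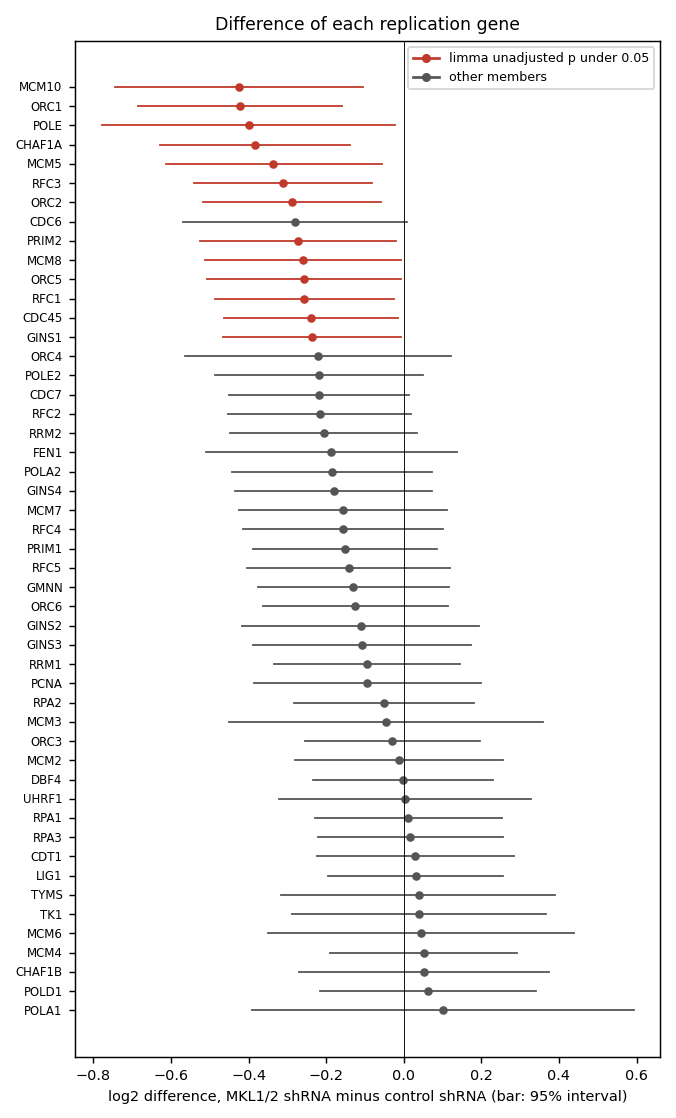
Log2 difference of each replication gene, MKL1/2 shRNA minus control shRNA (points), with limma's 95% interval (bars), in order of size; red marks the 13 members with an unadjusted p under 0.05. All red points are below 0, and the 12 members above 0 have intervals that include 0.

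The promoters of the 4 members with the smallest p (ORC1, CHAF1A, RFC3 and MCM10) and of the 2 whose difference was closest to 0 (DBF4 and UHRF1) are shown. DBF4 read near the lower quartile of all probes, so its value near 0 is not taken as a lack of difference. Each is the RefSeq window of GRCh38.p14 from 250 bases before to 50 bases after a transcription start, written 5′ to 3′ on the gene's strand. Capitals mark the core of the E2F binding motif, searched on both strands as any of 4 forms, namely TTCCCGC, then TTCGCGC, then TTGCCGC, then TTGGCGC. The windows are chr1:52404374-52404673 (minus strand) for ORC1, chr19:4402390-4402689 (plus strand) for CHAF1A, chr13:33817899-33818198 (plus strand) for RFC3, chr10:13161308-13161607 (plus strand) for MCM10, chr7:87876243-87876542 (plus strand) for DBF4 and chr19:4909251-4909550 (plus strand), the first of 3 listed starts, for UHRF1.
ORC1 promoter: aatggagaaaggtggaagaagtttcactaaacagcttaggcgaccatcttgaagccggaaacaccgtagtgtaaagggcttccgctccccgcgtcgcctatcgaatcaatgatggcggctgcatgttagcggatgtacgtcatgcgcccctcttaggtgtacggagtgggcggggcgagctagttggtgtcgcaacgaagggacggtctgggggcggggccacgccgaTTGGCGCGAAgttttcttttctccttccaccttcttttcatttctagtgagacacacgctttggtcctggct
CHAF1A promoter: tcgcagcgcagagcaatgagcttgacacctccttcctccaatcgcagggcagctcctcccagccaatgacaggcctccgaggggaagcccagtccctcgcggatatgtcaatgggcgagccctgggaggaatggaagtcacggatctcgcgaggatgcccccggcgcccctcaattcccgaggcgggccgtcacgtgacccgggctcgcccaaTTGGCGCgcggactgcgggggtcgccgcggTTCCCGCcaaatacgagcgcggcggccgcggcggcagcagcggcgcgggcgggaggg
RFC3 promoter: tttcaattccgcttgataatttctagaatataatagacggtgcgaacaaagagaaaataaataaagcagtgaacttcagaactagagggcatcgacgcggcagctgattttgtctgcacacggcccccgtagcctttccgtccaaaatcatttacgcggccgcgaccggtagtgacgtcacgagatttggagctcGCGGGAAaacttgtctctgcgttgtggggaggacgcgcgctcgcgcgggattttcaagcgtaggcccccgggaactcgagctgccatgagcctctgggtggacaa
MCM10 promoter: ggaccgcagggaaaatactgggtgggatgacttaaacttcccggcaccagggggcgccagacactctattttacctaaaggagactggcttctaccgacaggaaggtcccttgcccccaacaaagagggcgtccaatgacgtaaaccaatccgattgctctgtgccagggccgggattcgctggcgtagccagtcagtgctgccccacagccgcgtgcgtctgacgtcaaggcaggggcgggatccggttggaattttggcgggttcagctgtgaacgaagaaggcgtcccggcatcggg
DBF4 promoter: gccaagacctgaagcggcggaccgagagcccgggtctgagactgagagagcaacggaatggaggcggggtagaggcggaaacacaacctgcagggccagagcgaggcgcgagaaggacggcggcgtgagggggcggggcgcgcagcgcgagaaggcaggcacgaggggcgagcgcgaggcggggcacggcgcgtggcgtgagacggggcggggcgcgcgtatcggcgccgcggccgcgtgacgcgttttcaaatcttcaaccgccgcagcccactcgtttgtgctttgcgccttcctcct
UHRF1 promoter: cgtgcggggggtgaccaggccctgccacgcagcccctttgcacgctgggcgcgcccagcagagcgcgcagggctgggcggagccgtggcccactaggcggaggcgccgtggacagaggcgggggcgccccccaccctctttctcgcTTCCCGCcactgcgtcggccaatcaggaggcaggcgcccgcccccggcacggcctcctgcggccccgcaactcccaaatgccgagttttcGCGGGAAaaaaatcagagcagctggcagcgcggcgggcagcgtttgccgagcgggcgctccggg

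ORC1, CHAF1A and RFC3 hold the core, and so does UHRF1, whereas the MCM10 and DBF4 windows hold none of the 4 forms. The UHRF1 difference near 0 averages -0.16 in replicate 1 and 0.17 in replicate 2, and is not taken as a lack of difference. Other spellings of the E2F motif were not searched, so a window without a match may still hold such a site. In ORC1 an overlapping pair of matches on opposite strands lies at bases -22 to -13 from the start, and in CHAF1A matches lie at -37 to -31 and -7 to -1.

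All 6 subunits of ORC, the complex that marks origins and recruits the helicase loaders, had lower means in knockdown cells, with a median difference of -0.24. ORC1, the largest subunit and the ATPase that is degraded and resynthesised with the cell cycle, read 7.20 and 7.03 on the control arrays and 6.75 and 6.64 on the knockdown arrays. Both knockdown values lay below both controls, at 74.6% of the control level, and the log2 values differed by -0.42 (SE 0.108, limma adjusted p = 0.188). ORC2, a core subunit, read 8.21 and 8.25 on the control arrays and 7.91 and 7.98 on the knockdown arrays, again without overlap, with a difference of -0.29 (SE 0.0943, limma adjusted p = 0.265). ORC5 read 8.51 and 8.35 on the control arrays and 8.18 and 8.16 on the knockdown arrays, nearly alike in both knockdown arrays, and its difference was -0.26 (SE 0.102, limma adjusted p = 0.336). For ORC4, an ATPase subunit, the arrays read 7.54 and 7.42 in control against 7.08 and 7.44 in knockdown cells, so that replicate 1 was low and replicate 2 lay within the control range (difference -0.22, SE 0.141, limma adjusted p = 0.54). ORC6 and ORC3 had differences of -0.12 (SE 0.0975) and -0.030 (SE 0.0926). ORC3 was close to level on the 4 arrays, with a 95% interval of -0.26 to 0.20.

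CDC6 lay lower on both knockdown arrays, and its fellow loader CDT1 on both sides of the control mean. CDC6, the ATPase that completes the helicase loader on ORC, read 9.41 and 9.42 on the control arrays and 9.00 and 9.27 on the knockdown arrays, with both knockdown arrays low but replicate 1 lower, and its difference was -0.28 (SE 0.118, limma adjusted p = 0.36). CDT1, which brings MCM2-7 to the origin, lay at -0.047 from the control mean in replicate 1 and 0.10 in replicate 2 (95% interval of the difference -0.22 to 0.28). Its inhibitor GMNN had a difference of -0.13 (SE 0.101). The difference between CDC6 and CDT1 was not tested.

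Within the MCM2-7 ring, MCM5 was the only subunit with an unadjusted p under 0.05 with all 4 arrays. MCM5 read 8.28 and 8.21 on the control arrays and 7.80 and 8.02 on the knockdown arrays, below both controls on both arrays and at 79.2% of the control level (difference -0.34, SE 0.114, limma adjusted p = 0.276). MCM7 also lay below both controls, with 10.53 and 10.42 in control against 10.22 and 10.41 in knockdown cells, but only narrowly in replicate 2 (difference -0.16, SE 0.11, limma adjusted p = 0.582). The other four subunits lay on both sides of the control mean in the knockdown arrays. MCM6 lay at -0.19 in replicate 1 and 0.28 in replicate 2, MCM3 at -0.27 in replicate 1 and 0.17 in replicate 2, MCM2 at -0.12 in replicate 1 and 0.092 in replicate 2 and MCM4 at -0.009 in replicate 1 and 0.11 in replicate 2. Their mean differences were near 0, with 95% intervals of -0.35 to 0.44 for MCM6, -0.45 to 0.36 for MCM3, -0.28 to 0.26 for MCM2 and -0.19 to 0.29 for MCM4. Over the 6 subunits the median was -0.22 for replicate 1 and 0.10 for replicate 2.

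MCM10 and MCM8, relatives in name that are not part of the ring, both read lower in knockdown than in control cells. MCM10, which binds the CMG helicase and is needed for its activation, read 8.49 and 8.29 on the control arrays and 7.84 and 8.10 on the knockdown arrays. It had the largest mean difference of the list, at 74.6% of the control level (difference -0.42, SE 0.131, limma adjusted p = 0.243), and replicate 1 lay further down than replicate 2. MCM8, which acts with MCM9 in homologous recombination, read 9.16 and 9.05 on the control arrays and 8.78 and 8.91 on the knockdown arrays, a difference of -0.26 (SE 0.103, limma adjusted p = 0.337).

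Among the factors that turn the loaded ring into an active helicase, CDC45 and GINS1 were low to a like degree in both knockdown arrays. CDC45, a CMG component, read 8.43 and 8.40 on the control arrays and 8.18 and 8.18 on the knockdown arrays, with knockdown values that were nearly equal and below both controls (difference -0.24, SE 0.0921, limma adjusted p = 0.321). GINS1 read 9.74 and 9.75 on the control arrays and 9.55 and 9.47 on the knockdown arrays, with control values also close together (difference -0.24, SE 0.0947, limma adjusted p = 0.338). GINS4 read 7.10 and 6.97 in control against 6.80 and 6.91 in knockdown cells, which did not overlap (difference -0.18, SE 0.105, limma adjusted p = 0.492). GINS2 and GINS3, the other subunits of the same complex, were low in replicate 1 alone, at -0.26 in replicate 1 and 0.036 in replicate 2 for GINS2 and -0.23 in replicate 1 and 0.011 in replicate 2 for GINS3. CDC7, the kinase that phosphorylates the MCM ring, read 6.65 and 6.67 on the control arrays and 6.40 and 6.49 on the knockdown arrays, below both controls (difference -0.22, SE 0.0953, limma adjusted p = 0.372). Its activating subunit DBF4 read 4.00 and 4.09 in control against 4.04 and 4.05 in knockdown cells, near the lower quartile of all probes (3.99 to 4.02) with no background level known, so no difference is read from it.

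**Figure D3:**
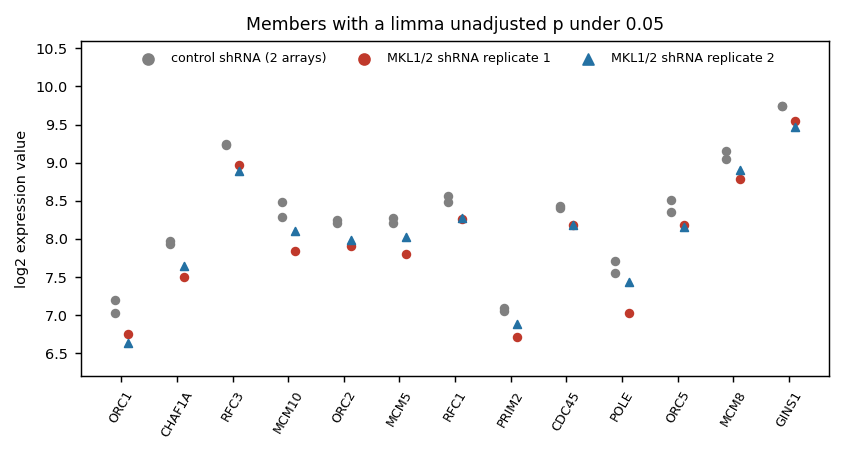
Log2 expression value on each of the 4 arrays (vertical axis) for the 13 replication genes with a limma unadjusted p under 0.05, in order of p; grey circles are control arrays, red circles and blue triangles the knockdown replicates. In all 13 genes both knockdown points lie below both control points, which their choice by p on these same arrays favours. POLE has the widest gap between its knockdown points, 7.03 and 7.44.

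Each of the 5 subunits of the clamp loader RFC had a lower mean in knockdown cells, and so did PCNA, the sliding clamp that it loads and that tethers polymerases to DNA. The 95% intervals of RFC1 and RFC3 lay below 0, and those of RFC2, RFC4, RFC5 and PCNA included 0. RFC3 read 9.23 and 9.25 on the control arrays and 8.97 and 8.89 on the knockdown arrays, the clearest of the 5 (difference -0.31, SE 0.0946, limma adjusted p = 0.236). RFC1, the large subunit, read 8.56 and 8.48 on the control arrays and 8.26 and 8.27 on the knockdown arrays (difference -0.26, SE 0.095, limma adjusted p = 0.308). Both genes were low by a like amount in the 2 knockdown arrays. RFC2 read 8.65 and 8.55 in control against 8.40 and 8.36 in knockdown cells (difference -0.22, SE 0.0967, limma adjusted p = 0.381), and RFC4 read 9.54 and 9.36 in control against 9.28 and 9.31 in knockdown cells (difference -0.16, SE 0.106, limma adjusted p = 0.564). RFC5 lay at -0.24 in replicate 1 and -0.048 in replicate 2. In all 5 subunits the knockdown arrays read below both controls, where 23.0% of all genes did. PCNA lay at -0.21 in replicate 1 and 0.022 in replicate 2, with a 95% interval of the difference of -0.39 to 0.20.

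Of 7 polymerase and primase genes, 5 had both knockdown arrays below both controls, where 23.0% of all genes did. POLE, the catalytic subunit of the leading-strand polymerase epsilon, read 7.71 and 7.56 on the control arrays and 7.03 and 7.44 on the knockdown arrays. At 75.8% of the control level it had among the largest mean differences (difference -0.40, SE 0.155, limma adjusted p = 0.326), but replicate 1 lay further down, with -0.60 in replicate 1 and -0.19 in replicate 2. POLE2, the second subunit of that enzyme, read 8.17 and 8.35 in control against 7.99 and 8.10 in knockdown cells (difference -0.22, SE 0.11, limma adjusted p = 0.433). PRIM2, the large primase subunit, which has a pseudogene copy whose transcripts the probe could share, read 7.09 and 7.06 in control against 6.72 and 6.88 in knockdown cells (difference -0.27, SE 0.103, limma adjusted p = 0.317). PRIM1, the catalytic primase subunit, read 8.15 and 8.26 in control against 8.07 and 8.05 in knockdown cells (difference -0.15, SE 0.0973, limma adjusted p = 0.543). POLA2 read 7.25 and 7.30 in control against 7.00 and 7.18 in knockdown cells (difference -0.18, SE 0.106, limma adjusted p = 0.49). The catalytic subunits of polymerases alpha and delta lay on both sides of the control mean: POLA1 lay at -0.20 in replicate 1 and 0.40 in replicate 2, and POLD1 at -0.056 in replicate 1 and 0.18 in replicate 2. The 95% interval of POLA1, -0.39 to 0.59, was the widest of the list.

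RPA, the heterotrimer that coats single-stranded DNA, was nearly level in all 3 subunits. RPA1, RPA2 and RPA3 had differences of 0.011 (SE 0.0991), -0.050 (SE 0.0953) and 0.017 (SE 0.0977), and their 95% intervals were -0.23 to 0.25, -0.28 to 0.18 and -0.22 to 0.26. On the lagging strand, FEN1, the flap endonuclease, lay at -0.35 in replicate 1 and -0.025 in replicate 2. LIG1, the ligase that joins Okazaki fragments, had a difference of 0.031 (SE 0.093).

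Among genes of nucleotide supply, RRM2 and RRM1 lay below the controls on both knockdown arrays, and TYMS and TK1 lay on both sides. RRM2, the S phase subunit of ribonucleotide reductase, read 8.77 and 8.83 on the control arrays and 8.54 and 8.65 on the knockdown arrays, below both controls (difference -0.21, SE 0.0987, limma adjusted p = 0.408), and the large subunit RRM1 had a difference of -0.10 (SE 0.0981). TYMS (thymidylate synthase) lay at -0.15 in replicate 1 and 0.22 in replicate 2, and TK1 (thymidine kinase) at -0.13 in replicate 1 and 0.20 in replicate 2.

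Of the genes that act on chromatin behind the fork, CHAF1A had the largest difference. CHAF1A, the large subunit of the histone chaperone CAF-1, read 7.97 and 7.93 on the control arrays and 7.50 and 7.64 on the knockdown arrays, with no overlap, at 76.6% of the control level (difference -0.38, SE 0.101, limma adjusted p = 0.196). CHAF1B, another CAF-1 subunit, lay at 0.22 in replicate 1 and -0.12 in replicate 2, and was the member that was higher in replicate 1 and lower in replicate 2. UHRF1, which recruits the maintenance methylase to newly copied DNA, lay at -0.16 in replicate 1 and 0.17 in replicate 2 for the brighter of its 2 probes. Its dimmer probe gave a difference of 0.076 but the reverse order, above both controls in replicate 1 and below both in replicate 2. UHRF1 was the 1 member with more than 1 single-gene probe.

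The knockdown arrays differed from each other more for these genes than the control arrays did. The SD over the 49 genes of the log2 difference was 0.174 between the knockdown arrays and 0.095 between the controls, against 0.265 and 0.154 over all genes. Replicate 1 read lower than replicate 2 in 39 of the 49, against 8772 of all 18417 genes. It did so too in 42 of 52 other replication genes and 39 of 43 G2 and mitosis genes, lists described below. Relative to the control mean, 46 members were lower in replicate 1 and 32 in replicate 2, against 8629 and 9554 of all 18417 genes. Among the members, 31 were lower in both replicates and 2, RPA3 and LIG1, were higher in both. The share of all genes lower in both was not counted. A further 15 were lower in replicate 1 and higher in replicate 2. These include MCM2, MCM3, MCM4, MCM6, PCNA, TYMS, TK1 and, by its brighter probe, UHRF1, with POLA1 reaching 0.40 in replicate 2. The genes that were low by a like amount on both arrays, with less than 0.1 between them, included ORC2, ORC5, CDC45, CDC7, GINS1, RFC1, RFC2 and RFC3. Both comparisons use the same control arrays, and with 1 array on each side neither has a test of its own.

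Replication genes outside the list gave smaller counts. Of 52 other measured replication genes, such as checkpoint adaptors, further polymerase subunits and histone chaperones, 0 passed an adjusted p under 0.05 in limma, and 5 were lower and 1 higher at an unadjusted p under 0.05. That is 9.62% lower, near the background of 8.04%. Both knockdown arrays lay below both controls for 22 (42.3%) and above both for 7, where 23.0% and 22.5% of all genes did. The median of the 52 genes was -0.10, with -0.14 for replicate 1 and -0.060 for replicate 2. RNASEH2A, the catalytic subunit of ribonuclease H2, read 8.82 ± 0.00279 in the control and 8.50 ± 0.0421 in the knockdown pair of arrays (means with SD on the log2 scale, n = 2 each), which differ by -0.33 (SE 0.0933, limma adjusted p = 0.219). HELLS, a chromatin remodeler of the SNF2 family, had a difference of -0.31 (SE 0.0948), and ATAD5, which unloads PCNA, one of -0.37 (SE 0.117).

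The cell cycle regulators upstream of these genes and the mitotic genes downstream were set beside them. Of 33 measured genes of E2F, RB and the S phase cyclins, 0 passed an adjusted p under 0.05 in limma, and 5 were lower (15.2%, against 8.04% of all genes) and 2 higher at an unadjusted p under 0.05. Both knockdown arrays lay below both controls for 13 (39.4%) and above both for 7, where 23.0% and 22.5% of all genes did. The median of the 33 genes was -0.030. CDK4, a kinase that phosphorylates RB in G1, read 10.84 ± 0.0614 in the control and 10.39 ± 0.101 in the knockdown pair of arrays (means with SD on the log2 scale, n = 2 each), which differ by -0.44 (SE 0.103, limma adjusted p = 0.162). CDK6, its close relative, and E2F6, a repressive E2F, had differences of -0.37 (SE 0.106) and -0.41 (SE 0.104). Of 43 measured G2 and mitosis genes, 0 passed an adjusted p under 0.05, and 4 were lower (9.30%, near the 8.04% of all genes) and none higher at an unadjusted p under 0.05. A total of 35 of the 43 (81.4%, against 75.5% of the replication genes and 48.0% of all genes) had a lower mean in knockdown cells. Both knockdown arrays lay below both controls for 19 (44.2%) and above both for 1, where 23.0% and 22.5% of all genes did. Over the 43 genes the median difference was -0.14. For replicate 1 their median lay at -0.26 and for replicate 2 at -0.014. PLK1, a mitotic kinase, read 10.70 ± 0.0487 in the control and 10.18 ± 0.0144 in the knockdown pair of arrays (means with SD on the log2 scale, n = 2 each), which differ by -0.52 (SE 0.094, limma adjusted p = 0.12). BIRC5, which encodes survivin, and KIF2C, a microtubule-depolymerising kinesin, had differences of -0.31 (SE 0.117) and -0.25 (SE 0.0974). With the probes of a gene averaged, the difference of BIRC5 was smaller, -0.195. In replicate 2 the replication genes lay at -0.088 and the mitotic genes at -0.014, and whether the lists differ was not tested.

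**Figure D4:**
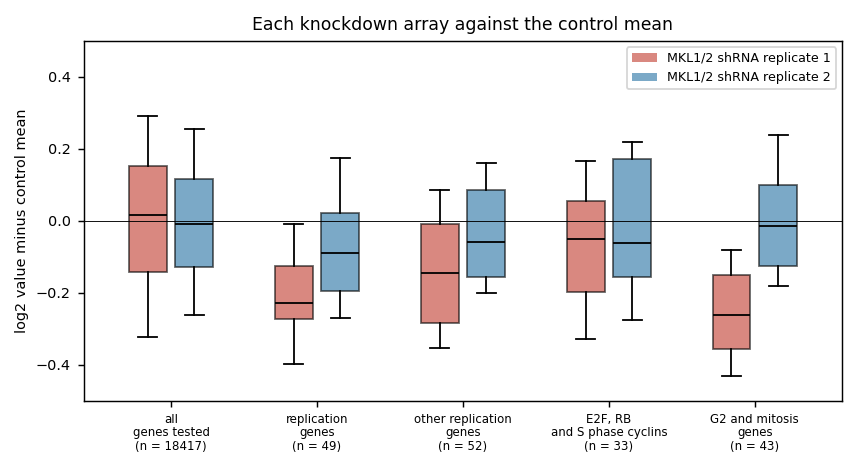
Log2 value minus the control mean for knockdown replicate 1 (red) and replicate 2 (blue), over all genes tested and over 4 gene lists; boxes span the quartiles with the median as a line, and whiskers the 10th to 90th percentiles of genes. The replication genes have medians of -0.23 and -0.088, and the G2 and mitosis genes -0.26 and -0.014.

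The promoters were then searched for what the members share beside their role. Windows were found for 44 of the 49 genes, some with several starts, giving 58 windows. The E2F core occurred in a window of 34 of the 44 members (77.3%), against 21.0% of 14239 tested genes with a window, and in 63.8% of the 58 windows against 13.0% of all 35116. CCAAT, the NF-Y motif, occurred in 59.1% of members against 42.2% of tested genes, and GGGCGG, a GC box, in 77.3% against 65.9%. TTTGAA, the cell cycle homology region of many mitotic genes, occurred in 2 of 44 members (4.55%), DBF4 and RRM1, against 15.7% of tested genes. GGAATG, a TEAD motif, occurred in 20.5% against 15.5%. The CArG box, the SRF motif, occurred in none of the 44 members' windows, where 1.70% of tested genes held it. These are matches of letters on either strand, not measured binding, and 11 of the 60 E2F core matches in the members' windows overlapped a CCAAT or GGGCGG match.

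Matches of the E2F core were densest just before the start. The 50 bases before the start held 25 of the 60 matches, or 43.1 per 100 windows, against 2.68 per 100 over all windows, and the first 50 bases after it held 12. The windows of MCM2, MCM6, MCM7, ORC1 and RFC1 hold the core on both strands as overlapping matches, each of which was counted. Among the 12 members with a window and an unadjusted p under 0.05, 7 held the core, and among the 32 other members 27 did. The median log2 difference was -0.14 for the 34 members with the core and -0.23 for the 10 without. ORC2, ORC5, CDC45, MCM10 and PRIM2 were among the members without a match to the 4 forms and had an unadjusted p under 0.05.

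**Figure D5:**
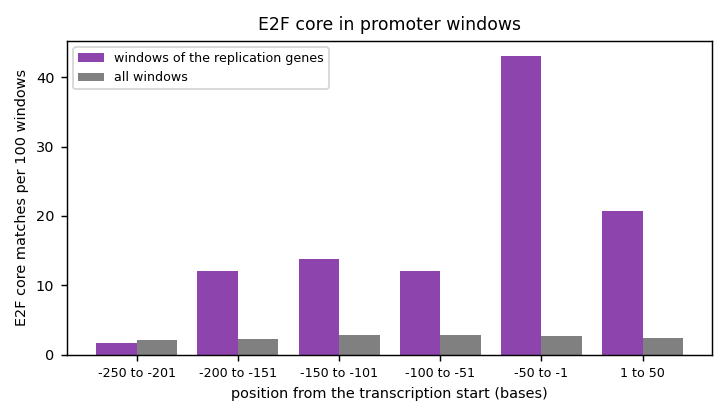
Number of E2F core matches per 100 promoter windows (vertical axis) in bins of 50 bases by position from the transcription start, for the 58 windows of the replication genes (purple) and all 35116 windows (grey). The bin from -50 to -1 holds 43.1 matches per 100 windows in the replication genes and 2.68 over all windows.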

How the data were processed

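The deposited table holds log2 expression values for 33297 probes, which the authors made from 4 biotin-labelled whole-transcript arrays; the submitters' processing notes name Partek, and how background was corrected and values normalized is not stated there or in the labels. That the scale is log2 was judged from the value range. Probes were named from the platform annotation: 19460 list 1 gene, 1754 list several and the annotation used here leaves 12083 unnamed. Gene symbols were brought up to date through the RefSeq table of GRCh38.p14, and the brightest single-gene probe stood for a gene, which gave 18417 genes. Differences (knockdown minus control) were tested by the moderated linear model of limma 3.58.1, run in R 4.3.3 (group as the 1 term, two-sided, Benjamini-Hochberg over all genes, threshold 0.05), with 2 residual and 4.12 prior degrees of freedom; the code was tested on simulated data. The 95% intervals use the moderated standard error. No array pair was a duplicate (at most 174 identical probe values). The members and lists were chosen with earlier results of these data known. All members may be named; array values are given for the 24 with the smallest p and DBF4, and for the other lists the 3 genes with the smallest p. Promoter windows came from RefSeq; motifs were matched exactly on both strands. The alternatives dropped dim genes, rescaled arrays by quantiles or medians, averaged probes, changed the variance moderation or threshold, dropped each array in turn, and blocked on replicate number. No dates, slides or scanner files were analysed here, so background and batch were not varied.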

Additional observations from a re-analysis of the deposited data

How the results depend on the processing

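No replication gene passed an adjusted p of 0.05 in limma under any of the 11 alternative fits, nor an adjusted p under 0.10 with all 4 arrays. The list's median of -0.15 ran from -0.23 to -0.088 when each array was left out and was -0.12 after quantile normalization and -0.18 after median centring. The 13 members at an unadjusted p under 0.05 became 8 after quantile normalization, 7 without variance moderation (6 of them among the 13) and 0 to 18 when each array was left out. With the replicate number as a block there were 7, all among the 13. There were more, all lower, with variance moderation that follows intensity (14) and after median centring (16). The share of all genes lower at that threshold moved too, from 8.04% to 7.92% after quantile normalization, 5.55% without moderation and 7.03% with the block. It was 8.46% with moderation that follows intensity and 10.0% after median centring. The 28 members whose knockdown arrays lay below both controls were, in a recount chosen after seeing the data, 26 after quantile normalization and 29 after median centring, with 23.4% and 28.4% of all genes below. Over all genes, the 32 calls were 0 without variance moderation, 144 at a threshold of 0.10, 93 with the replicate block and 0 to 781 when each array was left out. The replicate numbers were not taken as pairs, since the labels do not tie them to a day or batch; the deviations of same-numbered arrays correlated at -0.0669 over 18417 genes. None of the 24 members with the smallest p changed sign under any alternative. That follows largely from their choice on these same arrays. All but ORC4 had both knockdown arrays below both controls, and ORC4 had both below the control mean. Of the other members, 18 changed sign in at least 1 alternative, with differences from -0.11 to 0.10 in all 4 arrays. MCM2 was 0.031 after quantile normalization, and after median centring CDT1 was -0.003, RPA1 was -0.021, RPA3 was -0.016, LIG1 was -0.001, UHRF1 was -0.029. When each array was left out the ranges were CDT1 -0.047 to 0.10, MCM2 -0.12 to 0.092, MCM3 -0.27 to 0.17, RPA3 -0.042 to 0.075, UHRF1 -0.16 to 0.17, DBF4 -0.045 to 0.040, RPA1 -0.054 to 0.076, TK1 -0.13 to 0.20, TYMS -0.15 to 0.22, GINS2 -0.26 to 0.036, GINS3 -0.23 to 0.011, PCNA -0.21 to 0.022, CHAF1B -0.12 to 0.22, MCM4 -0.009 to 0.11, MCM6 -0.19 to 0.28, POLA1 -0.20 to 0.40, POLD1 -0.056 to 0.18. The cause of these changes was not tested. A fit without 1 array assumes that the lone array of its group varies like the other group. With 2 arrays a group and no scanner files, the number of arrays limits the precision and no detection call stands behind a value.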
